A study of Mus musculus with 47 samples.

Results

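Immune checkpoint ligands and receptors were described as 9 genes of the 56748 in the count table: the ligands Cd274, Pdcd1lg2, Cd80 and Cd86 and the receptors Pdcd1, Ctla4, Lag3, Havcr2 and Tigit. They were listed by name, with earlier results of these data known, and all 9 had a row. The study edited the mitochondrial genome of B78-D14 cells, an amelanotic mouse melanoma line derived from B16 and lacking Cdkn2a (Cdkn2a-/-), with a mitochondrial base editor (DdCBE). The edits are truncating G>A changes in Mt-Nd5, a subunit gene of respiratory complex I, at m.12,436 or m.11,944. Each edited line is a population of cells that keeps a known share of mutant mitochondrial DNA, its heteroplasmy. RNA was read in 4 cultures of m.11,944 60% cells and 4 of control cells, and in subcutaneous tumors that grew from m.12,436 60% cells (7 tumors), m.12,436 40% cells (7 tumors) and control cells (4 tumors). The hosts were young adult male C57BL/6 mice with an intact immune system, no group was treated, and control cells share the Cdkn2a loss without the mutation. Of 47 samples, 26 were tied to a column of the table through the column names, read with headings of the study's source data, and the other 21 were not analysed here. Only the numbers in the labels separate the samples of a group, so p-values measure the spread between these samples, part of which may be technical.

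T cells are switched on through the antigen receptor together with a co-stimulatory signal, and checkpoint receptors brake that signal. PD-L1 (Cd274) and PD-L2 (Pdcd1lg2) bind PD-1 (Pdcd1) on T cells. CD80 and CD86, made mainly by antigen-presenting cells, act on T cells through CD28, and the inhibitory receptor CTLA-4 competes for them. LAG-3 (Lag3), TIM-3 (Havcr2) and TIGIT (Tigit) are further inhibitory receptors of T and NK cells, and TIM-3 is also made by myeloid cells. Interferon gamma from T and NK cells induces PD-L1 on tumor cells and macrophages, and antibodies against PD-1 or CTLA-4 are standard treatment in melanoma.

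The promoter windows of 4 members are shown because 3 of these genes, Cd274, Havcr2 and Tigit, were read in cultured melanoma cells with Ptprc at or near 0, while Pdcd1lg2, the neighbor of Cd274 on chromosome 19, was not. Each window is the 250 bases before the start of the canonical GENCODE transcript in GRCm39, written 5′ to 3′ on the gene's strand, and none overlaps an annotated exon. Capitals mark a match to a searched motif. Cd274 lies at chr19:29344279-29344528 on the + strand, Pdcd1lg2 at chr19:29388069-29388318 on the + strand, Havcr2 at chr11:46345423-46345672 on the + strand and Tigit at chr16:43484510-43484759 on the - strand.
Cd274: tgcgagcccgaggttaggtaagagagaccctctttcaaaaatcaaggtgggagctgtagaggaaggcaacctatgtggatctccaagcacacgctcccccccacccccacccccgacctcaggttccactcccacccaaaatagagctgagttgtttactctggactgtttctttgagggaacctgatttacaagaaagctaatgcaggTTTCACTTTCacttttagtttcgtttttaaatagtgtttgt
Pdcd1lg2: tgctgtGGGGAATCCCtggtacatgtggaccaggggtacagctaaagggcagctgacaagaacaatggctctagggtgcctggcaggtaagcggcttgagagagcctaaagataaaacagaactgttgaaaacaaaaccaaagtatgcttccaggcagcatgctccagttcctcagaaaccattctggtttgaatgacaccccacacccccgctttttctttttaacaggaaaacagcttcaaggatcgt
Havcr2: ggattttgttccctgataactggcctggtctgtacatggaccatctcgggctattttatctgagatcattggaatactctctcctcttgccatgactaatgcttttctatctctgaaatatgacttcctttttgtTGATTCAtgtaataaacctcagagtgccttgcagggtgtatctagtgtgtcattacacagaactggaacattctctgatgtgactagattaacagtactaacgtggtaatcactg
Tigit: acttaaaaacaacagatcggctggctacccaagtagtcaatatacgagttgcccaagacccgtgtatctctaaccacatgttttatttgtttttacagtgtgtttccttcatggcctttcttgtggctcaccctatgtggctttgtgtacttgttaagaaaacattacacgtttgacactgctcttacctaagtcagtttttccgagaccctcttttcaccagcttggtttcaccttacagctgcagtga

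Motifs were searched on both strands in the windows of all 9 members. An interferon-stimulated response element, searched as 2 runs of GAAA set 2 bases apart, was matched in the window of Cd274 alone among the members, 41 to 32 bases before the start, and 3.32% of 21751 protein-coding windows held it. A gamma-activated site, spelled TTCNNNGAA, was matched in no member and in 7.69% of windows. The kappaB motif, searched as GGGA and CCC set 3 bases apart, was matched in Pdcd1lg2, 244 to 235 bases before the start, and in 4.93% of windows. The AP-1 spelling TGANTCA was matched in Cd80, 42 to 36 bases before the start, in Havcr2, 115 to 109 bases before it, and in 6.17% of windows. The window of Tigit held none of the 4 motifs. A match describes the letters and does not show that a factor binds there.

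Which members were read in the melanoma cells themselves was described from the 8 cultures. Values are counts, or CPM, the count scaled to the depth of its sample by TMM, which was done separately for cultures and tumors. Between 16475735 and 36173502 reads were counted on genes per sample. Pdcd1lg2, Cd86, Pdcd1 and Ctla4 had 0 counts in all 8 cultures, so their levels lay below the limit that 3 counts allow. Ptprc, which encodes the leukocyte antigen CD45, had 1 count in 1 culture and 0 in the other 7, and the 4 NK markers and 7 of 8 T cell markers (Cd3d, Cd3e, Cd3g, Cd2, Cd4, Cd8a and Cd5) were at 0 in every culture. The remaining T cell marker, Cd8b1, reached at most 0.0767 CPM in a culture. The defining melanocyte gene Tyr was at 0 in the cultures, and the regulator Mitf was read at 15.0 CPM in control cells. The other listed melanocyte markers were low there, with means of 0.104 CPM for Sox10, 0.216 for Pmel, 0.233 for Dct and 0.0326 for Mlana.

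Although Cd274 had more counts in control cultures 1 and 2, the member with the most counts over all cultures together was Tigit. In control cells it had 89, 69, 279 and 238 counts in replicates 1 to 4, or 3.25, 2.51, 7.93 and 8.07 CPM. In m.11,944 60% cells it had 126, 113, 303 and 319 counts, or 4.94, 4.25, 11.6 and 8.73 CPM. Replicates 3 and 4 were higher than replicates 1 and 2 in both lines, and the lines overlapped. No annotated gene overlaps Tigit or Havcr2.

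Havcr2 had 14, 19, 97 and 51 counts in the 4 control cultures and 23, 29, 90 and 70 in the m.11,944 60% cultures, again higher in replicates 3 and 4. Cd274 went the other way, with 109, 109, 46 and 31 counts in control cultures and 62, 75, 22 and 39 in m.11,944 60% cultures. Cd80 had 13, 15, 45 and 28 counts in control cultures and 22, 25, 29 and 31 in m.11,944 60% cultures. Lag3 had 2 to 7 counts per culture. Genes on the opposite strand overlap Cd274 (Plgrkt and a long noncoding RNA), Cd80 (Timmdc1 and a long noncoding RNA), Pdcd1lg2 (long noncoding RNAs) and Ctla4 (a long noncoding RNA), and a same-strand gene overlaps Cd80 (a long noncoding RNA) and Ctla4 (the pseudogene Rpl18-ps1). These overlaps are of whole gene spans, introns included, and shared exons were not tested. Whether counting used the strand is not stated in the sources used here. How far reads of these 4 genes and their partners can be told apart is therefore not known, the low tumor counts of Pdcd1lg2 and Ctla4 included. The first principal component of the cultures held 73.8% of the variance and placed replicates 1 and 2 of both lines on one side and replicates 3 and 4 on the other.

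The 60% heteroplasmy at m.11,944 was compared with control cells for the 4 members that passed the filter on low counts, Cd274, Cd80, Havcr2 and Tigit. In fits without the replicate number, none passed an adjusted p of 0.1 in edgeR's quasi-likelihood test, and none had an unadjusted p under 0.05. Limma-voom and DESeq2, fitted the same way, called none of them. Of all 12930 genes tested, 0.0387% were called. The log2 fold change was -0.52 (SE 0.57) for Cd274, 0.20 (SE 0.34) for Cd80, 0.36 (SE 0.61) for Havcr2 and 0.44 (SE 0.47) for Tigit, each with an interval that spans 0. Same-numbered cultures deviated together, and the SEs above hold that shared spread. With the replicate number as a block in edgeR's test, Tigit was higher in m.11,944 60% cells by 0.48 on the log2 scale (adjusted p = 0.0923). In that fit 919 of the 12930 genes were called in place of 5. Tigit and Havcr2 were each higher in m.11,944 60% cells in all 4 same-numbered pairs, and Havcr2 had 0.41 with the block (adjusted p = 0.255). Cd274 was lower in m.11,944 60% cells in pairs 1, 2 and 3 and nearly level in pair 4, at 1.07 against 1.05 CPM. Over all alternative fits the adjusted p of Cd274 was 0.170 or more.

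Control tumors and control cultures differ in tissue, host cells and growth, and their comparison only describes where the transcripts were read. Of all 15047 genes tested, 65.2% were called. Of the 7 members tested, Cd86, Pdcd1 and Lag3 passed the filter on low counts through the tumors alone, so a call of them is fixed in part by the filter and is not given as a result. The 4 that also passed in the cultures were called, Cd274, Cd80 and Havcr2 higher in tumors and Tigit lower. Cd274 was higher in tumors by 1.91 (SE 0.43, adjusted p = 0.00419), Cd80 by 2.58 (SE 0.38, adjusted p = 0.00038) and Havcr2 by 2.80 (SE 0.51, adjusted p = 0.00124), all on the log2 scale and in edgeR's test. Lag3 had 7, 5, 2 and 3 counts in the control cultures and 58, 110, 50 and 59 in the control tumors. For the members at 0 in the control cultures, tumors were at least 13.4-fold higher for Pdcd1lg2, 220-fold for Cd86, 49.0-fold for Pdcd1 and 28.3-fold for Ctla4, against a limit of 3 counts over the 4 control cultures. Tigit was lower in control tumors by a log2 difference of -1.02 (SE 0.43, adjusted p = 0.0656), with control tumors at 1.93, 4.16, 4.05 and 2.71 CPM. The Tigit call was lost without control culture 3 (adjusted p = 0.146) or 4 (0.159), without control tumor 001 (0.150) or 004 (0.136), in limma-voom (0.109) and with at least 10 counts asked of every sample (0.107).

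**Figure D1:**
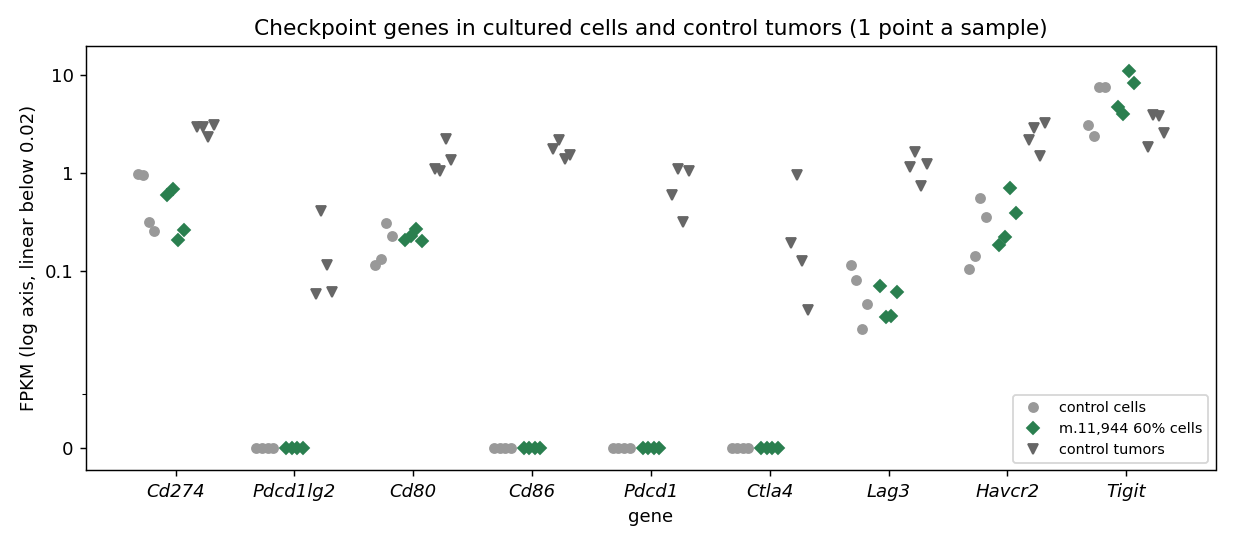
FPKM (the count scaled to depth and exon length) of each checkpoint gene on a log axis that is linear near 0, with 1 point for each of the 4 control cultures, 4 m.11,944 60% cultures and 4 control tumors. Pdcd1lg2, Cd86, Pdcd1 and Ctla4 sit at 0 in every culture, and Tigit is the only gene whose cultures reach above the control tumors.

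Set on FPKM, a scale per exon length, Tigit led in control tumors at 3.06 ± 1.03 (SD, n = 4), followed by Cd274 at 2.85 ± 0.356, Havcr2 at 2.47 ± 0.790, Cd86 at 1.71 ± 0.332, Cd80 at 1.43 ± 0.539, Lag3 at 1.20 ± 0.372, Pdcd1 at 0.764 ± 0.374, Ctla4 at 0.333 ± 0.431 and Pdcd1lg2 at 0.161 ± 0.167. Neighbors in that order differed by less than the larger of their SDs, except Lag3 and Pdcd1, and Pdcd1 and Ctla4, whose gap about equaled it. In the m.12,436 60% tumors Cd274 led at 5.09 ± 1.61 FPKM (n = 7) and Pdcd1lg2 was again last at 0.413 ± 0.326. In these pieces of whole tumor, fewer cells of a type and less RNA per cell cannot be told apart.

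Whether heteroplasmy at m.12,436 goes with checkpoint gene levels was compared over the 18 tumors, all in 1 fit. All members but Cd80 had their highest mean level in m.12,436 60% tumors, by little for Tigit, but none of the 9 members passed an adjusted p of 0.1 in edgeR's test. The call rate over all 16213 genes was 2.31% for 60% against control tumors, 0% for 40% against control tumors and 1.81% for 60% against 40% tumors. At an unadjusted p under 0.05 there were 4 members (Cd274, Cd86, Pdcd1 and Havcr2) in 60% against control tumors, where 16.3% of all genes were, 0 in 40% against control tumors, and 2 (Cd274 and Pdcd1) in 60% against 40% tumors, where 14.1% were. The median log2 fold change of the 9 members was 0.70 in 60% against control tumors, 0.17 in 40% against control tumors and 0.62 in 60% against 40% tumors, beside medians over all genes of -0.0025, 0.0043 and -0.0036. These comparisons share tumors, so they are not independent of each other. Limma-voom called none of the members, and DESeq2 called Cd274 alone in 60% against control tumors and in 60% against 40% tumors.

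Cd274 had the largest separation. The 4 control tumors were at 12.1, 12.3, 9.51 and 12.7 CPM. The 40% tumors ran from 5.96 to 15.6 CPM with a median of 13.8, and the 60% tumors from 11.1 to 29.9 CPM with a median of 23.0. Of the 60% tumors, 6 of 7 lay above every control tumor and 5 of 7 above every 40% tumor, while tumors 5 and 6 were near the control level. The difference of 60% from control tumors was 0.83 on the log2 scale (SE 0.27, 95% interval 0.27 to 1.40), or 1.78-fold, with an adjusted p of 0.142 in edgeR's test, and that from 40% tumors was 0.78 (SE 0.22, adjusted p = 0.114).

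The Cd274 value lay close to the threshold, and several settings moved it across, while most did not. Against control tumors it stayed uncalled in 15 of 19 alternative fits, with adjusted p up to 0.588. Against 40% tumors it stayed uncalled in 17 of 21, with adjusted p up to 0.272. When 1 tumor was left out, its log2 difference ran from 0.72 to 0.96 and from 0.67 to 0.89. DESeq2 called it against control tumors (adjusted p = 0.0353) and against 40% tumors (0.0198), and edgeR did with only the 60% and control groups in the fit (0.0954). Against control tumors it was called without 60% tumor 6 (log2 0.96, adjusted p = 0.0794). Against 40% tumors it was called without 60% tumor 5 (0.86, adjusted p = 0.0887), without 60% tumor 6 (0.89, adjusted p = 0.0559) and without 40% tumor 4 (0.85, adjusted p = 0.0938). In 40% against control tumors its log2 fold change was 0.05 (SE 0.26).

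The other PD-1 ligand, Pdcd1lg2, was scarce. Control tumors held 3, 28, 8 and 3 counts, or 0.135, 0.933, 0.263 and 0.140 CPM, the 40% tumors 0.166 to 0.800 CPM with a median of 0.339, and the 60% tumors 0.262 to 2.37 CPM with a median of 0.905. Control tumor 002 stood above the others of its group and inside the range of the 60% tumors. The difference of 60% from control tumors was 1.28 (SE 0.62, adjusted p = 0.311), and without control tumor 002 it was 2.33 with an adjusted p of 0.0968 in edgeR's test.

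Of the CD28 ligands, Cd86 followed the same order and Cd80 did not. Cd86 was at 6.74, 8.33, 5.40 and 5.93 CPM in control tumors, at 5.28 to 10.4 CPM with a median of 7.22 in 40% tumors and at 6.19 to 13.4 CPM with a median of 9.46 in 60% tumors. Of the 60% tumors, 5 of 7 lay above every control tumor, and the difference was 0.54 (SE 0.22, adjusted p = 0.224). Cd80 was at 4.58, 4.33, 9.15 and 5.60 CPM in control tumors, at 2.81 to 6.18 CPM with a median of 4.56 in 40% tumors and at 2.83 to 6.25 CPM with a median of 5.48 in 60% tumors. Control tumor 003 held the highest Cd80 value of all 18 tumors. The Cd80 difference of 60% from control tumors was -0.22 (SE 0.23), and it was 0.086 without control tumor 003.

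Among the receptors, Pdcd1 was at 1.17, 2.17, 0.625 and 2.05 CPM in control tumors, at 0.456 to 3.32 CPM with a median of 1.53 in 40% tumors and at 1.20 to 5.80 CPM with a median of 4.03 in 60% tumors. The difference of 60% from control tumors was 1.14 (SE 0.52, adjusted p = 0.280) and that from 40% tumors 0.94 (SE 0.42, adjusted p = 0.325). Ctla4 was at 0.449, 2.27, 0.296 and 0.0934 CPM in control tumors, the last of these from 2 counts, at 0.436 to 1.79 CPM with a median of 1.10 in 40% tumors and at 0.344 to 3.53 CPM with a median of 1.54 in 60% tumors. As for Pdcd1lg2, control tumor 002 stood apart, and the difference of 60% from control tumors went from 1.25 (SE 0.69, adjusted p = 0.385) to 2.75 without it (adjusted p = 0.0697 in edgeR's test).

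Lag3 was at 2.61, 3.66, 1.65 and 2.75 CPM in control tumors, at 1.21 to 3.97 CPM with a median of 3.37 in 40% tumors and at 1.17 to 7.65 CPM with a median of 4.37 in 60% tumors. The 60% group held both the lowest and the highest Lag3 value of the 18 tumors, in tumors 6 and 7, and its difference from control tumors was 0.70 (SE 0.40, adjusted p = 0.398). Havcr2 was at 10.6, 14.2, 7.41 and 16.1 CPM in control tumors, at 8.39 to 21.4 CPM with a median of 15.2 in 40% tumors and at 14.1 to 24.3 CPM with a median of 15.5 in 60% tumors. Its difference of 60% from control tumors was 0.56 (SE 0.23, adjusted p = 0.249). Tigit was at 1.93, 4.16, 4.05 and 2.71 CPM in control tumors, at 2.45 to 4.38 CPM with a median of 3.51 in 40% tumors and at 1.38 to 5.77 CPM with a median of 2.44 in 60% tumors. Of the 60% tumors, 2 lay above and 4 below every 40% tumor. Its differences were 0.08 (SE 0.33) from control tumors and 0.02 (SE 0.28) from 40% tumors.

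**Figure D2:**
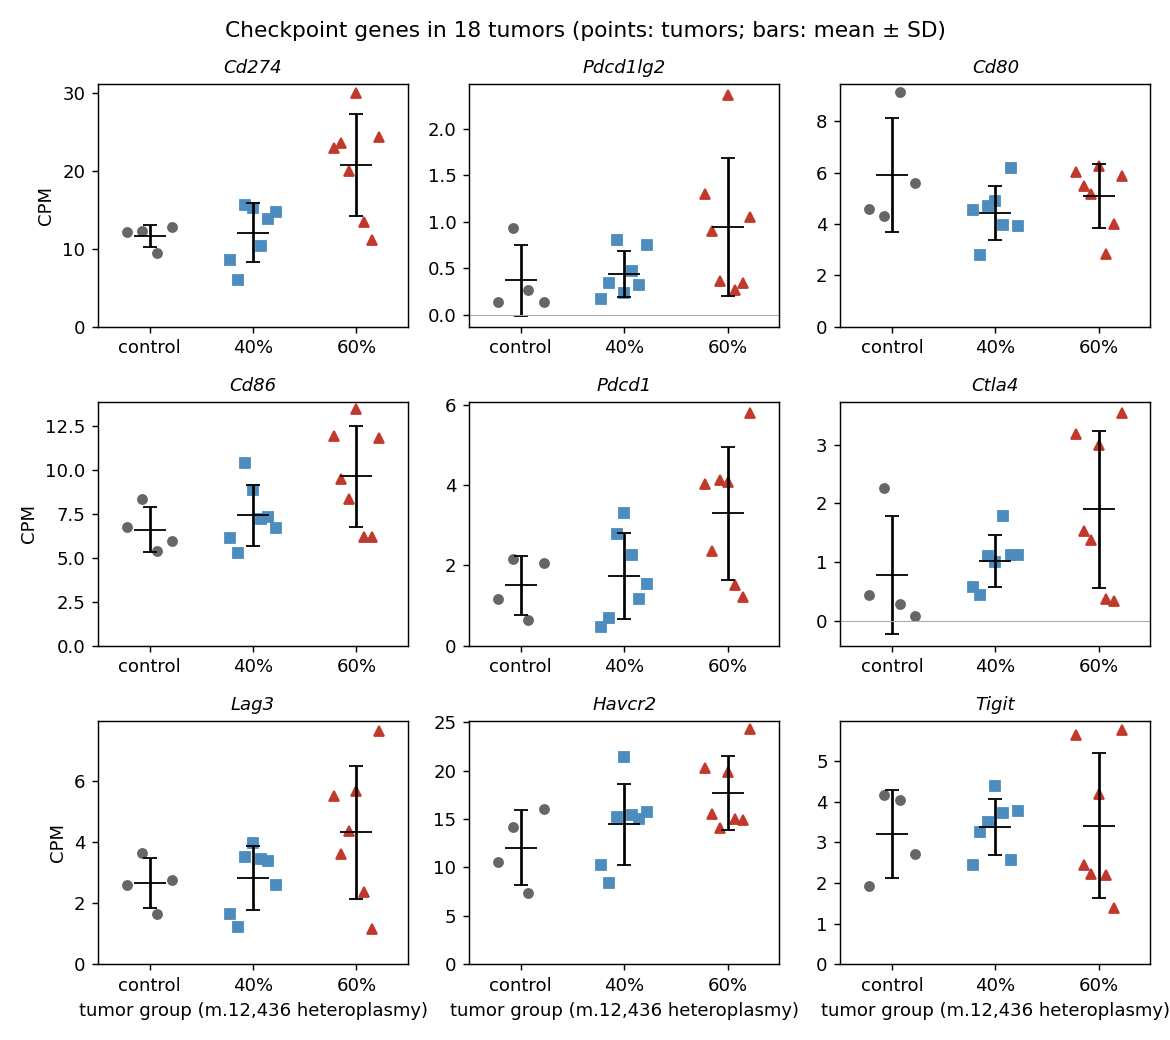
CPM of each checkpoint gene in control, m.12,436 40% and m.12,436 60% tumors, with 1 point a tumor (n = 4, 7 and 7) and bars at the mean ± SD. Cd274 separates most, with 6 of 7 m.12,436 60% tumors above every control tumor, and no gene separates the groups without overlap.

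Ptprc itself was related to the members because most of them are made by leukocytes. It was at 68.2, 95.8, 51.0 and 77.0 CPM in control tumors, at 55.3 to 103 CPM with a median of 80.5 in 40% tumors and at 81.3 to 154 CPM with a median of 110 in 60% tumors. Ptprc was higher in 60% than in control tumors by 0.61 (SE 0.19, adjusted p = 0.135 in edgeR's test), in 4 of 7 tumors above every control tumor.

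Within the tumor groups, 8 of 9 members rose with Ptprc in edgeR's test of the slope, which gives the log2 change of a gene per log2 unit of Ptprc with a level for each group. Of all 16213 genes, 6.65% were called in this test. The slope was 2.96 (SE 0.56, adjusted p = 0.00226) for Ctla4, 2.41 (SE 0.62, adjusted p = 0.0238) for Pdcd1lg2, 2.27 (SE 0.39, adjusted p = 0.000743) for Pdcd1 and 1.74 (SE 0.31, adjusted p = 0.00119) for Lag3, so these transcripts rose more steeply than Ptprc itself in the estimate. It was nearer to 1 for Tigit at 1.16 (SE 0.31, adjusted p = 0.0320), Havcr2 at 1.01 (SE 0.17, adjusted p = 0.000598), Cd274 at 0.97 (SE 0.26, adjusted p = 0.0310) and Cd86 at 0.89 (SE 0.19, adjusted p = 0.00555). Cd80 had a slope of 0.05 (SE 0.30, adjusted p = 0.969). The call was lost for Pdcd1lg2 without control tumor 002 (adjusted p = 0.141), for Tigit without 60% tumor 7 (0.115) and for Cd274 with the summed leukocyte markers in place of Ptprc (0.125).

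Across the 18 tumors, Pearson's r of log2 CPM with Ptprc was 0.89 for Pdcd1, 0.86 for Havcr2, 0.84 for Cd86, 0.81 for Cd274, 0.80 for Lag3, 0.75 for Ctla4 and 0.74 for Pdcd1lg2. In permutation tests of 16212 genes the adjusted p of these 7 ran from 0.000513 to 0.00946, and 11.6% of all genes passed 0.1. Spearman's rho was 0.87, 0.78, 0.80, 0.82, 0.81, 0.77 and 0.74 in the same order, with adjusted permutation p from 0.00145 to 0.0164. Without the 2 tumors farthest from the median of Ptprc, 60% tumor 7 and control tumor 003, r stayed between 0.68 and 0.84 for these 7 genes. After removal of the group means r was 0.64 to 0.85, and within the 7 tumors of the 60% group it was 0.83 to 0.94. Within the 7 tumors of the 40% group the same genes ran from 0.37 for Pdcd1lg2 to 0.87 for Pdcd1.

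Tigit and Cd80 stood apart from these 7 in the pooled correlation. Tigit had r of 0.48 (adjusted permutation p = 0.219) and rho of 0.51 (adjusted permutation p = 0.167), and r of 0.54 without the 2 farthest tumors. Within groups its r was 0.94 in the 60% tumors (exact permutation p = 0.00298) and 0.88 in the 40% tumors (exact permutation p = 0.00258), and it was 0.70 after removal of the group means. Cd80 had r of 0.08 (adjusted permutation p = 0.897) and rho of 0.20 (adjusted permutation p = 0.673), r of 0.41 without the 2 farthest tumors, 0.80 in the 60% tumors and 0.07 in the 40% tumors. Control tumor 003, with the lowest Ptprc of the 18 tumors, had the highest Cd80 and a Tigit value of 4.05 CPM.

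**Figure D3:**
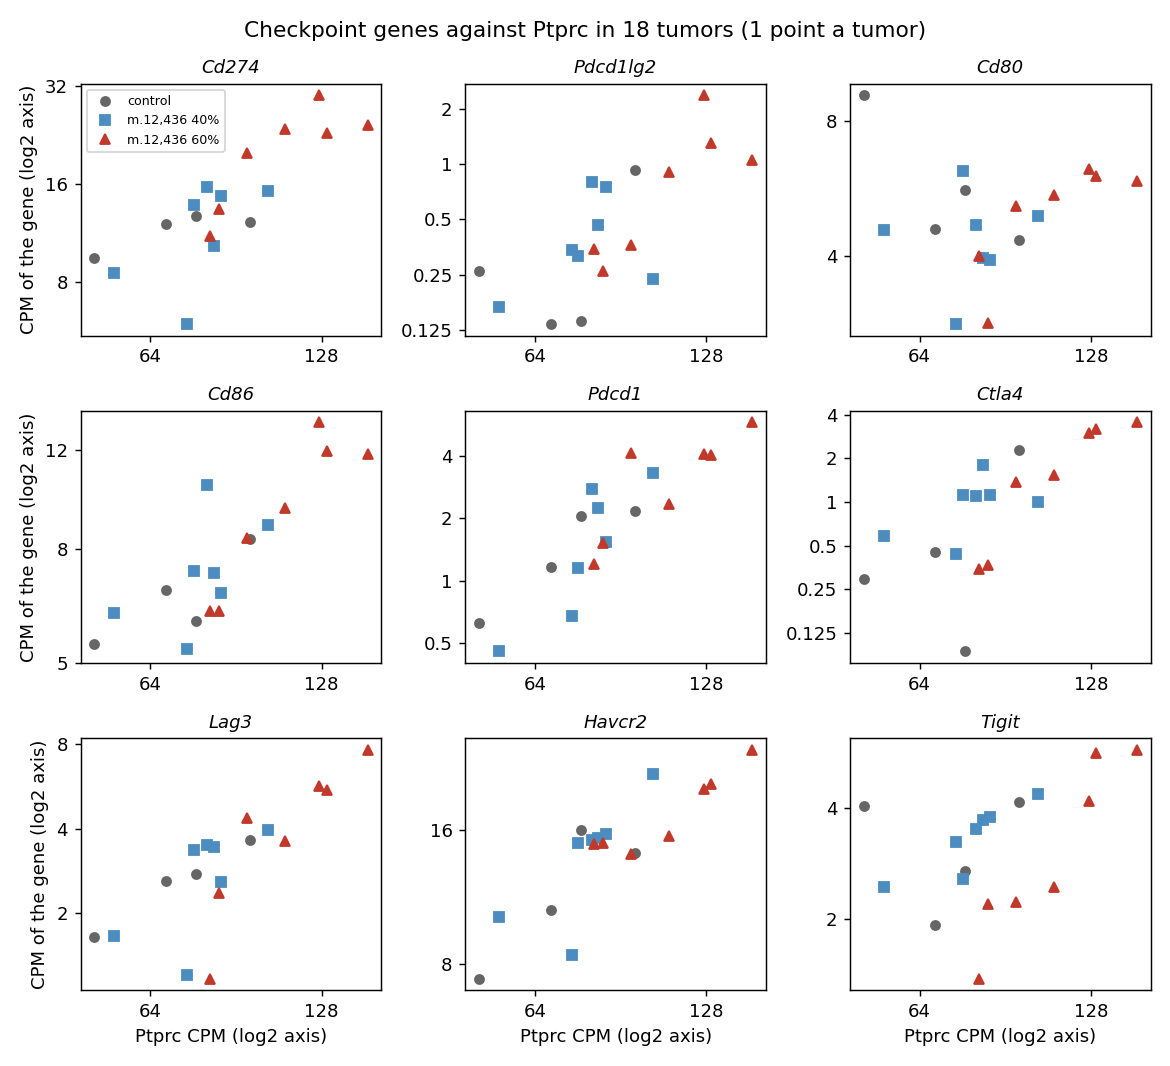
CPM of each checkpoint gene against CPM of Ptprc in the 18 tumors, both on log2 axes, with 1 point a tumor, marked by group. Points rise together for 7 genes, Cd80 shows no common line, and for Tigit 4 of the 60% tumors sit below every 40% tumor.

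At equal Ptprc, with its log2 CPM as a covariate, the differences between groups were smaller for most members, and none passed an adjusted p of 0.1 in edgeR's test or in limma-voom. Of all 16213 genes, 0.0987% were called in 60% against control tumors, 0% in 40% against control tumors and 0.216% in 60% against 40% tumors. In 60% against control tumors 8 of the 9 estimates were below 0, with a median of -0.23, where 8 of 9 had been above 0 without the covariate. Cd274 had a difference of 0.19 (SE 0.26, 95% interval -0.35 to 0.74), Pdcd1lg2 of -0.18 (SE 0.60), Cd86 of -0.03 (SE 0.19), Pdcd1 of -0.23 (SE 0.38), Havcr2 of -0.04 (SE 0.17), Lag3 of -0.46 (SE 0.32), Ctla4 of -0.49 (SE 0.54) and Cd80 of -0.25 (SE 0.32). Against 40% tumors Cd274 had 0.30 (SE 0.21, 95% interval -0.13 to 0.74). The intervals of these members leave room for differences of either sign. Those of Tigit lay below 0, at -1.50 to -0.075 against control tumors and -1.20 to -0.051 against 40% tumors.

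Tigit was the 1 member with an unadjusted p under 0.05 at equal Ptprc. Its level was lower in 60% than in control tumors by a log2 difference of -0.79 (SE 0.34, unadjusted p = 0.0321 and adjusted p = 0.645 in edgeR's test) and lower than in 40% tumors by -0.62 (SE 0.27, unadjusted p = 0.0343 and adjusted p = 0.473). Per 100 counts of Ptprc the 60% tumors had 1.69 to 4.32 counts of Tigit (median 2.61), the 40% tumors 3.36 to 4.50 (median 4.37) and the control tumors 2.83 to 7.94 (median 3.93). Neither difference passed the threshold over all genes, at which level 7.32% and 9.42% of genes had an unadjusted p under 0.05.

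**Figure D4:**
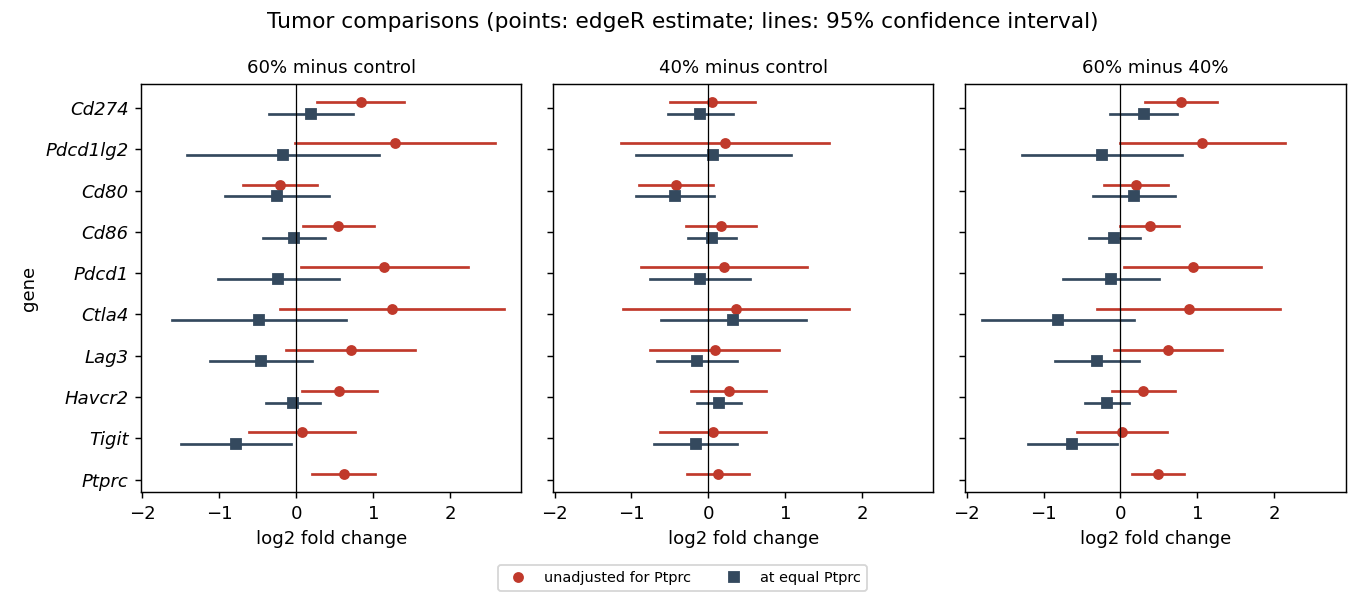
Log2 fold changes of the checkpoint genes and Ptprc in the 3 tumor comparisons, with 95% confidence intervals, without Ptprc in the fit (circles) and at equal Ptprc (squares). With the covariate, 8 of 9 estimates of 60% minus control tumors lie below 0, and Cd274 moves from 0.83 to 0.19.

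The genes whose levels ran closest to each member over the 18 tumors were found among all genes with a mean log2 CPM of at least 1, and up to 3 with the highest Pearson r of each are given as a description. For Cd274 they were Tap2, a peptide transporter of antigen presentation (r = 0.94), Apol10b (0.92) and the interferon-induced factor Irf1 (0.92). For Cd86 they were H2-DMb1, a class II peptide-loading gene (0.94), Plbd1 (0.94) and Naaa (0.93). For Havcr2 they were the adaptor Pag1 (0.95), Gvin3 (0.93) and Gvin4 (0.92), and for Pdcd1lg2 Mmp25 (0.89), the chemokine receptor Ccr7 (0.88) and Gmfg (0.87).

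For Lag3 they included Trbc2, a constant segment of the T cell receptor (0.95), and Sh2d2a (0.93). For Ctla4 they were Csf2rb2 (0.95), the cytokine signaling inhibitor Cish (0.93) and Tnfrsf4, which encodes the co-stimulatory receptor OX40 (0.92). For Pdcd1 they were the macrophage gene Mpeg1 (0.94), Tbc1d9 (0.94) and 9330175E14Rik (0.94). Tigit had lower values, with Ptpn18 (0.84), Rap2b (0.80) and the phosphatase Ptpn22 (0.79), and so did Cd80, with the matrix gene Mgp (0.83), Gpx8 (0.79) and Katnal2 (0.78). The genes were picked as the highest of many, and why their levels ran with those of the members was not tested.

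Other genes of the checkpoint pathway were read from 6 lists. Of 13 other inhibitory receptors, all 13 were tested in tumors, and all 13 had a positive estimate in 60% against 40% tumors, with a median of 0.49. Pilra, an inhibitory receptor of myeloid cells, rose by 0.59 (SE 0.13, adjusted p = 0.0377), and it was the 1 gene of the list past the threshold. Its mean was 36.1 ± 7.08 CPM in 60% tumors and 24.1 ± 3.21 in 40% tumors (SD, n = 7 each). Against control tumors the smallest p belonged to Pilra (0.51, adjusted p = 0.122) and Vsir, which encodes VISTA (0.25, adjusted p = 0.147).

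Of 13 other inhibitory ligands, 11 were tested and 7 had a positive estimate in 60% against 40% tumors, with a median of 0.13. Ceacam1, a ligand of TIM-3, rose by 0.51 (SE 0.14, adjusted p = 0.0892), and the others did not pass. Against control tumors Ceacam1 had 0.55 (adjusted p = 0.117) and Lgals9, which encodes galectin-9, another TIM-3 ligand, 0.37 (adjusted p = 0.242). Of 14 regulators of PD-L1, 13 had a positive estimate in 60% against 40% tumors, with a median of 0.19. Irf1, which drives Cd274 downstream of interferon gamma, rose by 0.47 (SE 0.12, adjusted p = 0.0888), from 102 ± 15.0 to 140 ± 28.5 CPM, and was the 1 regulator past the threshold. Against control tumors the PD-L1 stabilizer Cmtm6 (0.24, adjusted p = 0.123) and Tlr3 (0.41, adjusted p = 0.130) had the smallest p.

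None of the co-stimulatory genes or of the signaling genes below the receptors passed in a tumor comparison. Of 9 co-stimulatory receptors, 8 were tested and all 8 had a positive estimate in 60% against control tumors, with a median of 0.69, led by Tnfrsf14 (0.57, adjusted p = 0.143) and Cd28 (0.75, adjusted p = 0.311). Of 7 co-stimulatory ligands, 6 were tested and all 6 were positive, with a median of 0.53, led by Cd40 (0.68, adjusted p = 0.233) and Tnfsf4 (1.13, adjusted p = 0.261). Of 14 signaling genes, 13 were tested and 12 were positive, with a median of 0.34, led by Pik3cd (0.22, adjusted p = 0.249) and Ptpn6, which encodes the phosphatase SHP-1 (0.32, adjusted p = 0.254). In m.11,944 60% against control cells, no gene of the 6 lists was called in the fit without the replicate number, and the lists were not read with that block. The lists were chosen with earlier results known, and the median over all genes stayed near 0 in each comparison, as given above.

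Markers of the cells a tumor piece can hold are given beside these groups, and no immune marker was called in a tumor comparison. The summed level of the 6 leukocyte markers was 603 to 846 CPM in control tumors, 650 to 801 in 40% tumors and 687 to 1239 in 60% tumors, with medians of 673, 733 and 962. That of the 8 T cell markers was 8.56 to 34.9, 8.84 to 24.8 and 9.49 to 60.8 CPM, with medians of 16.4, 17.7 and 27.4. That of the 4 NK markers was 4.38 to 9.70, 3.73 to 10.9 and 4.51 to 17.7 CPM, and that of the 3 regulatory T cell markers 7.87 to 18.9, 9.31 to 21.9 and 9.13 to 24.7 CPM, where the same sum reached 7.44 CPM in the cultures with Il2ra at 0. Macrophage markers were at 1193 to 1469, 1166 to 1479 and 1017 to 1774 CPM, and dendritic cell markers at 40.6 to 55.0, 38.1 to 61.6 and 43.7 to 71.6 CPM. The part of these cell types in the member levels was tested only through Ptprc and the leukocyte sum.

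In 60% against control tumors all 6 leukocyte markers, 8 of 8 T cell, 4 of 4 NK and 3 of 3 regulatory T cell markers had positive estimates. So did 5 of 7 macrophage, 5 of 7 dendritic cell, 0 of 4 neutrophil and 1 of 2 B cell markers tested, and no marker of these lists was called. The 2 with the smallest p were Cd52 (0.63, adjusted p = 0.130) and Cd53 (0.39, adjusted p = 0.133) among leukocyte markers, Cd5 (1.30, adjusted p = 0.238) and Cd3d (0.84, adjusted p = 0.390) among T cell markers, Il2ra (1.17, adjusted p = 0.220) and Foxp3 (0.52, adjusted p = 0.655) among regulatory T cell markers, and Klrk1 (0.78, adjusted p = 0.340) and Ncr1 (0.67, adjusted p = 0.390) among NK markers. Among myeloid markers they were Csf1r (0.32, adjusted p = 0.167) and Mrc1 (-0.79, adjusted p = 0.299) for macrophages, Ccr7 (0.71, adjusted p = 0.322) and Itgax (0.47, adjusted p = 0.325) for dendritic cells, and Cxcr2 (-0.25, adjusted p = 0.850) and S100a9 (-0.19, adjusted p = 0.895) for neutrophils. Of 4 B cell markers 2 were tested, Cd79a (-0.10, adjusted p = 0.928) and Cd79b (0.00, adjusted p = 0.997).

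Markers of cells outside the immune system were uneven. Of the melanocyte markers, Pmel was called lower in 60% than in control tumors by -2.21 (SE 0.51, adjusted p = 0.0456), from a control mean of 2.88 ± 3.96 CPM whose SD exceeds it, and Mitf had 0.23 (adjusted p = 0.436). Pmel had -2.75 (SE 0.53, adjusted p = 0.774 in edgeR's test) in 40% against control tumors, with means of 0.430 CPM in 40% and 0.633 CPM in 60% tumors. Sox10 and Dct were not tested, with control means of 2.87 ± 4.56 and 7.43 ± 12.7 CPM and 60% means of 0.0294 and 0 CPM. In 60% against control tumors, endothelial Cdh5 (-0.26, adjusted p = 0.494) and Pecam1 (-0.15, adjusted p = 0.668) did not pass. Neither did fibroblast Col3a1 (0.25, adjusted p = 0.375) and Col1a1 (-0.44, adjusted p = 0.626) or muscle Myh4 (0.40, adjusted p = 0.921) and Acta1 (-0.20, adjusted p = 0.962). The summed skeletal muscle markers ran from 0.138 to 180 CPM in 60% tumors and from 0.230 to 113 CPM in control tumors. Their median was 0.498 CPM in 60% tumors, 50.9 CPM in control tumors and 90.7 CPM in 40% tumors. The part of muscle in the member levels, and in the differences between tumor groups, was not tested.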

How the data were processed

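Total RNA from cultured cells and from whole pieces of tumor was sequenced, aligned by the authors to the mouse genome with STAR and counted per gene with featureCounts, and the deposited values are raw counts, whole reads per gene without normalization. Whether strand was used in counting is not stated in the sources used here. The table has 47 columns, of which 26 could be tied to a sample and 21 were not used. Counts per sample ranged from 16475735 to 36173502, and limits from 3 counts cover counting error only.

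The 9 members and all gene lists were chosen with earlier results of these data known. Genes were filtered with filterByExpr (minimum count 10), scaled by TMM and tested with edgeR 4.0.16 (quasi-likelihood, robust) in R 4.3.3, with Benjamini-Hochberg adjustment over all genes tested and the study's threshold of 0.1. The 18 tumors shared 1 fit, the 8 cultures another, and control tumors with control cultures one of their own. Fits at equal Ptprc added its log2 CPM (prior count 2) as a covariate. Correlations with Ptprc were tested with 100000 permutations over samples, the smallest p these can give being 1e-05, and within groups exactly. FPKM used the exon length of each gene in GENCODE, where 56017 of 56748 gene IDs matched, and promoter windows came from the same annotation and genome, GRCm39. The fits were tested on simulated data.

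Named are the 9 members, Ptprc, in each list every gene past the threshold and the 2 with the smallest p in m.12,436 60% against control tumors, and for each member the 3 genes with the highest r among those with a mean log2 CPM of at least 1. One gene that this rule names is not reported here. Replicate numbers paired the cultures: deviations of same-numbered cultures from their group means correlated at 0.718 to 0.832, over 0.1 in all 4 pairs. The alternatives were limma-voom 3.58.1, DESeq2 1.42.0, DESeq2 size factors, other count filters, only the groups compared, the replicate block, another prior count, a summed leukocyte covariate and leaving out each sample. Leaving out control tumors 002 and 003 together, limma-voom at equal Ptprc and the leukocyte sum in the slopes were added after seeing the data.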

Additional observations from a re-analysis of the deposited data

Results flagged for a closer look

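In 37 groups of 4 or 7 samples, the value farthest from the rest was set against Dixon's 95% critical value, which chance exceeds in about 5% of groups, and 2 values exceeded it. Control tumor 002 held 0.933 CPM of Pdcd1lg2, where the other control tumors held 0.135 to 0.263, a gap of 0.839 of the range. The same tumor held 2.27 CPM of Ctla4, where the others held 0.0934 to 0.449, a gap of 0.836 of the range. It also had the highest Ptprc of the 4 control tumors, 95.8 CPM, and the part of leukocyte content in these values was not tested beyond the fits at equal Ptprc.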

How the results depend on the processing

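In m.12,436 60% against control tumors, where no member was called, 1 was with DESeq2, with only the 2 groups compared and with the replicate block over shared numbers, and 0 to 2 were when 1 tumor was left out. Against 40% tumors 1 was called with DESeq2, and 0 to 1 when 1 tumor was left out. In the cultures 1 member was called with the replicate block, in place of 0. In control tumors against control cultures, members that passed the filter through the tumors alone are not counted here. Cd274, Cd80 and Havcr2 kept their calls there in all 13 alternatives, and Tigit lost its call in 6 of 13. Over all genes 9806 were called there, with 6931 under at least 10 counts in every sample, a filter that leaves fewer genes to test. When 1 sample was left out, 8921 to 10530 genes were. Slopes on Ptprc were called for 7 to 8 members when 1 tumor was left out. The cause of these changes was not tested.

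Tumor replicate numbers did not pair the tumors: the mean correlation of same-numbered deviations was -0.156 for 60% and control, -0.00582 for 40% and control and -0.0264 for 60% and 40% tumors. With that block Cd274 had 1.05 (adjusted p = 0.00810) in 60% against control tumors, and signs turned for Cd80 there (0.024), for Cd274 (-0.13) and Lag3 (-0.12) in 40% against control tumors and for Tigit in 60% against 40% tumors (-0.12). The block in the cultures changed no other member's call.

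Limma-voom turned Tigit to -0.067 in 60% against control and to -0.12 in 60% against 40% tumors. At equal summed leukocyte markers, signs turned in 60% against control tumors for Cd86 (0.036), Pdcd1 (0.11) and Havcr2 (0.12), and for Pdcd1 in 40% against control (0.063) and 60% against 40% tumors (0.049), and limma-voom at equal Ptprc gave Pdcd1lg2 0.068 in 60% against control tumors. Without control tumors 002 and 003, Cd80 was at 0.0036 there. Signs also turned when 1 sample was left out, with ranges of -0.13 to 0.91 for Havcr2 in the cultures, of -0.10 to 0.23 for Tigit and -0.33 to 0.086 for Cd80 in 60% against control tumors, of -0.032 to 1.26 for Pdcd1lg2, -0.12 to 0.22 for Tigit, -0.028 to 0.16 for Cd274, -0.054 to 0.46 for Pdcd1 and -0.089 to 0.29 for Lag3 in 40% against control tumors, of -0.17 to 0.16 for Tigit in 60% against 40% tumors and of -0.13 to 0.50 for Cd80 in the slope on Ptprc.

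Over all genes, 60% against control tumors gave 374 calls with edgeR, 408 with limma-voom, 1056 with DESeq2, 943 with only the 2 groups, 66 to 724 when 1 tumor was left out (66 without control tumor 003) and 20 without control tumors 002 and 003. For 60% against 40% tumors the counts were 293, 316 and 744 by the same 3 tools, 178 with no filter and 108 to 452 when 1 tumor was left out. For 40% against control tumors they were 0, with 5 in DESeq2 and 0 to 4 when 1 tumor was left out, and for the cultures 5, with 84 in DESeq2, 919 with the block and 0 whenever 1 culture was left out. At equal leukocyte sum 47 and 102 genes were called for 60% against control and 40% tumors, where equal Ptprc gave 16 and 35. Depth limited Pdcd1lg2 and Ctla4, with 3 to 28 and 2 to 68 counts in control tumors.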
